A study of Mus musculus with 12 samples.

Results

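Bile acid synthesis was followed through 10 liver enzymes, from the first hydroxylation of cholesterol to the joining of the finished bile acid to taurine or glycine. The 10 genes were chosen by name, for their place in the pathway, with earlier results of these data known. Cyp7a1 and Cyp8b1 belong to the classic pathway, and Cyp27a1, Cyp7b1 and Cyp39a1 to the alternative pathway. Hsd3b7, Akr1d1 and Amacr act in steps that both pathways use, and Slc27a5 and Baat conjugate the product. The members are 10 of 31870 gene symbols on the array and 10 of the 19531 genes tested. All 10 were well above background on all 12 arrays. Liver RNA came from 12 mice in 4 groups of 3. FSAP-/- mice, which lack factor VII activating protease (FSAP, a plasma protease encoded by Habp2), had bile duct ligation (BDL) or a sham operation, and so had wild-type (WT) littermates, which are FSAP+/+. All mice came from crosses of heterozygotes on the BalbC background, backcrossed only up to the F3 generation. They were 20 to 30 weeks old, and livers were taken 2 weeks after surgery. The labels give neither the sex of the mice nor the deleted part of Habp2. The study asked whether FSAP limits fibrosis in a liver whose bile outflow is blocked.

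Bile acids are the main route by which the liver disposes of cholesterol. In the classic pathway Cyp7a1 hydroxylates cholesterol in the endoplasmic reticulum and sets the pace, and Cyp8b1 decides how much of the product becomes cholic acid. The alternative pathway starts with oxidation of the sterol side chain by mitochondrial Cyp27a1, and Cyp7b1 then hydroxylates the resulting oxysterols. Cyp39a1, grouped here with the alternative pathway, hydroxylates an oxysterol made largely in the brain. When bile acids build up in hepatocytes, the receptor FXR (Nr1h4) and its target SHP (Nr0b2), together with hormone from the intestine, are known to repress Cyp7a1 and Cyp8b1.

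Each gene was read by 60-base probes. The first 30 bases are shown for the 5 hydroxylases on which the contrast between the pathways rests, each on a line of its own, 5′ to 3′ in the direction of the transcript. The probes lie on mm9 at chr4:6193456-6193515 on the minus strand for Cyp7a1, chr9:121824595-121824654 on the minus strand for Cyp8b1, chr1:74782203-74782262 on the plus strand for Cyp27a1, chr3:17972286-17972345 on the minus strand for Cyp7b1 and chr17:43887735-43887794 on the plus strand for Cyp39a1. Which exon or untranslated region lies under a probe was not analysed here.
Cyp7a1: ttgtttttaaaacaagttttatgactccct
Cyp8b1: aaacctggaaaaagacggcataagctgttg
Cyp27a1: tcagatctgttgcaatcatgttccagaact
Cyp7b1: ttggttgagatcaatccagttggttttggg
Cyp39a1: ggggaacggaaactggggtgggaatgtatt
Slc27a5 had 2 probes and each other enzyme had 1.

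The promoter of Cyp8b1 is shown because Cyp8b1 had the largest change of the 10 genes. RefSeq promoters (GRCm38.p6) were matched for 4 of the 10, namely Cyp8b1, Cyp27a1, Hsd3b7 and Akr1d1. The 250 bases before the start site were searched on both strands for CAAAGTCCA, a sequence bound by HNF4A, and for AAGGTCA, a sequence bound by LRH-1 (Nr5a2). The first was present in 1 of the 4, Cyp8b1, and in 0.384% of 32851 mouse promoters. The second was in 0 of the 4 and in 4.08% of all promoters. The Cyp8b1 bases lie at chr9:121916306-121916555 of GRCm38.p6 on the minus strand, and the capitals mark CAAAGTCCA, 67 to 59 bases before the start. A match of letters describes the window and is not a measured binding site.
Cyp8b1 promoter: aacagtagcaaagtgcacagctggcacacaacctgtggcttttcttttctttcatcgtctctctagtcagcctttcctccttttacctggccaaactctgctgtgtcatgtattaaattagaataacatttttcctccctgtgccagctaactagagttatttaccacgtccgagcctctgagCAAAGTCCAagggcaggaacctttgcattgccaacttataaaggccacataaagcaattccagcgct

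Values are log2 processed signals minus the array's own 75th percentile, so 0 is the 75th percentile of that array, and a difference of 1 is a 2-fold difference. A level is compared only for 1 gene across arrays, since probes differ in brightness. The share of spots well above background ran between 54.55% and 62.29% over the arrays, and arrays of 1 group correlated at 0.971 to 0.993. Habp2 read 4.97 to 5.51 on the 6 WT arrays and -7.18 to -3.45 on the 6 FSAP-/- arrays, where it was well above background on 1, sham replicate 1. That array stood apart in other ways: it was alone on its slide and carried gene names for 8.53% of its spots, the rest being named through shared probe identifiers. Slide 1 held the 3 WT sham arrays and WT BDL replicate 1, slide 2 held WT BDL replicates 2 and 3 with FSAP-/- sham replicate 2, and slide 3 held the 3 FSAP-/- BDL arrays with FSAP-/- sham replicate 3. No slide held both genotypes after the same surgery. Signal of Ddx3y and Eif2s3y, both Y-linked, stood well above background on 3 arrays, FSAP-/- BDL replicates 1 and 2 and FSAP-/- sham replicate 1, and on 0 of the 6 WT arrays. Xist was well above background on the other 9 arrays and on 0 of those 3.

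**Figure D1:**
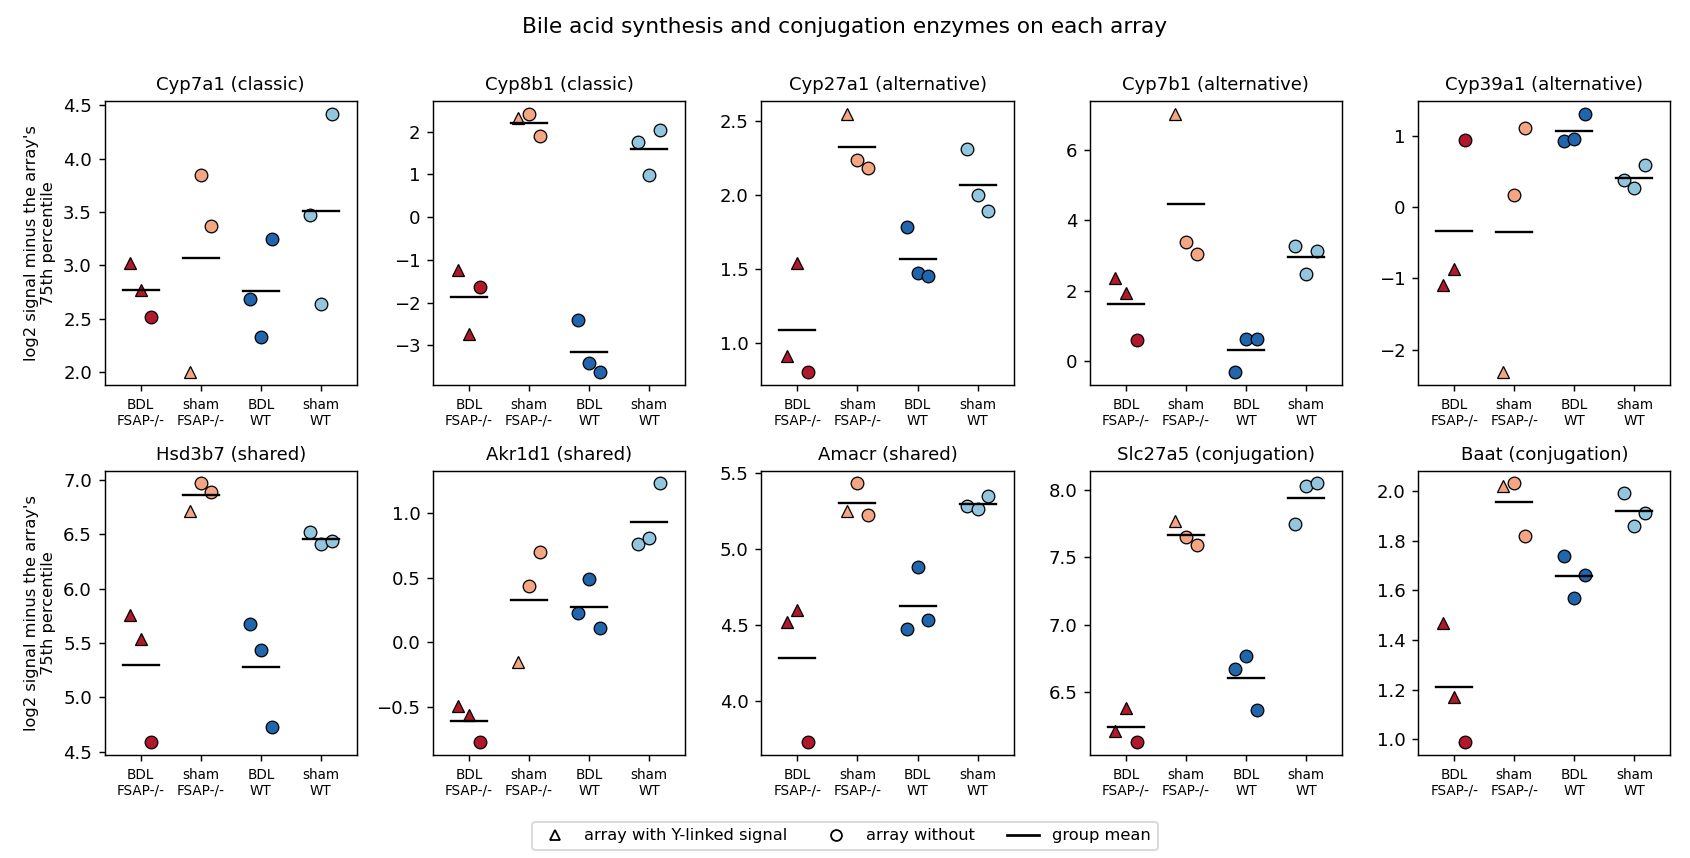
Each panel plots 1 enzyme, with its place in the pathway in brackets, as log2 signal minus the array's 75th percentile on each of the 12 arrays; bars are group means of 3 mice and triangles mark the 3 arrays with Y-linked signal. Cyp8b1 separates BDL from sham on every array in both genotypes, while the groups overlap for Cyp7a1.

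After BDL the enzymes fell along most of the pathway, with Cyp8b1 far ahead of the others and Cyp7a1 not past the test. In FSAP-/- livers 8 of the 10 enzymes fell and 0 rose at an adjusted p under 0.05 in limma's moderated test, against a background of 22.8% of all tested genes that fell. In WT livers 6 of the 10 fell and 0 rose, against a background of 17.7%. At an unadjusted p under 0.05 the counts were 8 in FSAP-/- livers, against 47.9% of all tested genes in either direction, and 7 in WT livers, against 43.4%. The 6 that fell in WT livers (Cyp8b1, Cyp7b1, Hsd3b7, Akr1d1, Amacr and Slc27a5) were all among the 8, and the other 2 were Cyp27a1 and Baat. The median change of the 10 was -1.13 in FSAP-/- livers and -0.71 in WT livers, where the median over all tested genes was -0.16 and -0.03. All 3 BDL arrays lay below all 3 sham arrays for 8 of the 10 enzymes in FSAP-/- livers, where 28.7% of all tested genes did so. The same held for 8 of the 10 in WT livers, where the share of all tested genes was 28%. RNA was measured in whole liver, so fewer hepatocytes and less RNA per hepatocyte cannot be told apart.

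**Figure D2:**
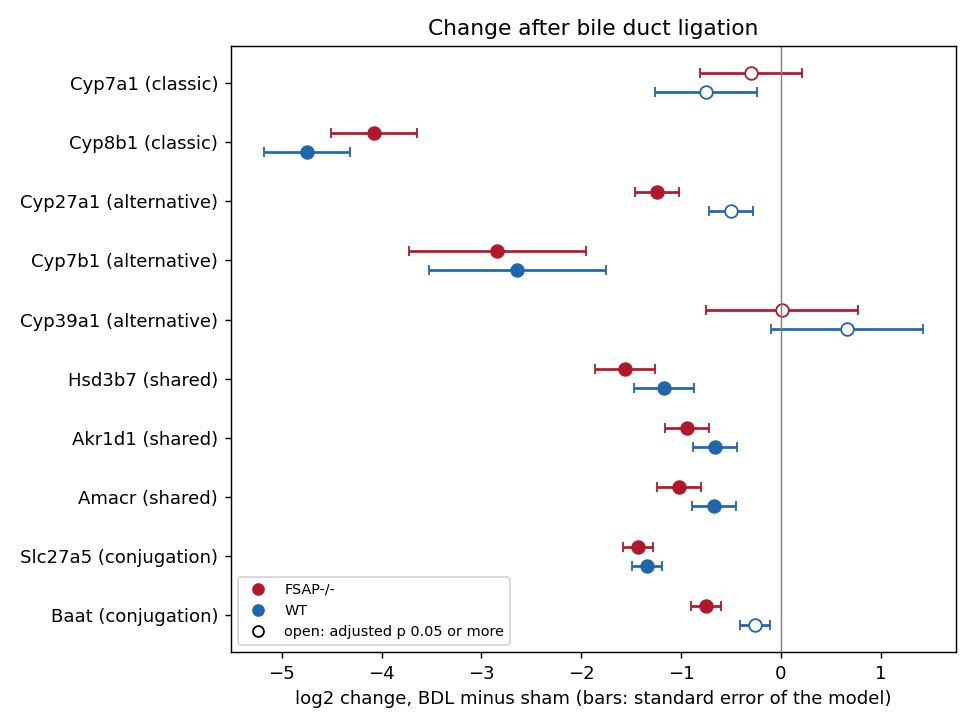
The log2 change after BDL (BDL minus sham, x axis) is plotted for each enzyme, FSAP-/- livers above WT livers, with the standard error of the model as bars and open symbols where the adjusted p was 0.05 or more. Cyp8b1 stands farthest to the left, at -4.08 in FSAP-/- livers and -4.75 in WT livers, and Cyp39a1 lies at or above 0.

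Cyp7a1, the rate-limiting enzyme of the classic pathway, read 3.02, 2.77 and 2.52 on the FSAP-/- BDL arrays, against 2.00, 3.85 and 3.37 on the FSAP-/- sham arrays. In WT livers it read 2.69, 2.33 and 3.25 after BDL, against 3.47, 2.64 and 4.42 after sham. In both genotypes the BDL arrays overlapped with the sham arrays. The sham arrays were spread widely, with an SD of 0.96 in FSAP-/- and 0.89 in WT livers. The change was -0.30 ± 0.51 (SE) in FSAP-/- livers (95% interval -1.43 to 0.82, adjusted p = 0.672) and -0.75 ± 0.51 in WT livers (95% interval -1.87 to 0.37, adjusted p = 0.289). The intervals include no change, and they include a fall larger than a halving. Cyp7a1 follows a daily rhythm in mice, and the labels give no hour of sampling.

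Cyp8b1, the hydroxylase that leads to cholic acid, read -1.24, -2.73 and -1.64 on the FSAP-/- BDL arrays, against 2.31, 2.42 and 1.90 on the FSAP-/- sham arrays. The WT readings of Cyp8b1 were -2.41, -3.41 and -3.63 after BDL, against 1.76, 0.98 and 2.04 after sham. The gap between the lowest sham array and the highest BDL array was wide in both genotypes. Cyp8b1 fell 16.9-fold in FSAP-/- livers (-4.08 ± 0.43, adjusted p = 6.85e-05) and 26.8-fold in WT livers (-4.75 ± 0.43, adjusted p = 3.59e-05). Of the 19531 genes, 0.246% had a lower change in FSAP-/- livers. Within slide 3 the difference was -3.77 (3 FSAP-/- BDL arrays and 1 sham array), and within slide 1 it was -4.01 (1 WT BDL array and 3 sham arrays).

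Cyp27a1, the mitochondrial enzyme that opens the alternative pathway, read 0.91, 1.54 and 0.80 on the FSAP-/- BDL arrays, against 2.55, 2.24 and 2.18 on the FSAP-/- sham arrays. WT livers had Cyp27a1 at 1.78, 1.47 and 1.45 after BDL, against 2.31, 2.00 and 1.89 after sham. The groups did not overlap in either genotype, and the distance between them was small in WT livers. Cyp27a1 fell by 1.24 ± 0.22 on the log2 scale in FSAP-/- livers (adjusted p = 0.00126). The change in WT livers was -0.50 ± 0.22 (adjusted p = 0.0989). The difference between the genotypes in this change, the interaction, was -0.74 ± 0.30 with an adjusted p of 0.326, so the changes are not shown to differ.

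Cyp7b1, the main hydroxylase of oxysterols in the alternative pathway, read 2.35, 1.95 and 0.59 on the FSAP-/- BDL arrays, against 7.02, 3.37 and 3.03 on the FSAP-/- sham arrays. In WT livers it read -0.31, 0.63 and 0.64 after BDL, against 3.26, 2.48 and 3.14 after sham. Sham replicate 1 of the FSAP-/- group was far above every other array. Cyp7b1 fell 7.17-fold in FSAP-/- livers (-2.84 ± 0.89, adjusted p = 0.0266) and 6.22-fold in WT livers (-2.64 ± 0.89, adjusted p = 0.042). The FSAP-/- change of Cyp7b1 was -1.57 without sham replicate 1, with an adjusted p of 0.0341, and -2.32 without BDL replicate 3, with an adjusted p of 0.0961. In WT livers the adjusted p of Cyp7b1 ran from 0.0676 to 0.111 when any 1 of the 6 WT arrays was left out, and it was 0.0538 without FSAP-/- BDL replicate 2. Within slide 3 the FSAP-/- difference was -1.40, and with slide as a fixed block it had an adjusted p of 0.146.

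Cyp39a1, which hydroxylates an oxysterol made largely in the brain, read -1.09, -0.87 and 0.95 on the FSAP-/- BDL arrays, against -2.32, 0.17 and 1.12 on the FSAP-/- sham arrays. WT livers had Cyp39a1 at 0.93, 0.97 and 1.32 after BDL, against 0.38, 0.28 and 0.60 after sham. FSAP-/- groups overlapped throughout, and in WT livers all BDL arrays lay above all sham arrays. The change was 0.01 ± 0.76 in FSAP-/- livers (adjusted p = 0.996) and 0.66 ± 0.76 in WT livers (adjusted p = 0.546). Fitted on the 6 WT arrays alone, where the spread of the FSAP-/- arrays does not enter, the WT change of Cyp39a1 was 0.66 ± 0.16 with an adjusted p of 0.0219.

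Cyp7b1 and Cyp39a1 moved in opposite directions on the 3 arrays with Y-linked signal. In mouse liver Cyp7b1 is known as a gene with higher expression in males and Cyp39a1 as one with higher expression in females. With presence of Y-linked signal as a covariate, those 3 arrays were 2.69 ± 0.48 (SE) higher in Cyp7b1 and -2.45 ± 0.30 in Cyp39a1 relative to the others, and the same coefficient lay between -0.62 and 0.43 for the other 8 enzymes. A coefficient larger in size was found for 0.333% of all tested genes for Cyp7b1 and for 0.445% for Cyp39a1. Among sham arrays the coefficient rests on FSAP-/- sham replicate 1, at 7.02 in Cyp7b1 against 3.37 and 3.03 in its group. The FSAP-/- BDL arrays with the signal read 2.35 and 1.95 in Cyp7b1, against 0.59. Sham replicate 1 was alone on its slide, so slide and Y-linked signal cannot be told apart for it. In the model with the covariate Cyp7b1 fell by 3.74 ± 0.48 after BDL in FSAP-/- livers (adjusted p = 2.88e-04) and by 2.64 ± 0.45 in WT livers (adjusted p = 0.00172). Cyp39a1 was 0.82 ± 0.30 in FSAP-/- livers (adjusted p = 0.0509) and 0.66 ± 0.28 in WT livers (adjusted p = 0.0979). Without the 3 arrays the FSAP-/- change of Cyp7b1 was -2.61, a value that sets 1 BDL array against 2 sham arrays. With the covariate Cyp7b1 passed the test in both genotypes, and Cyp39a1 did not pass in either.

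**Figure D3:**
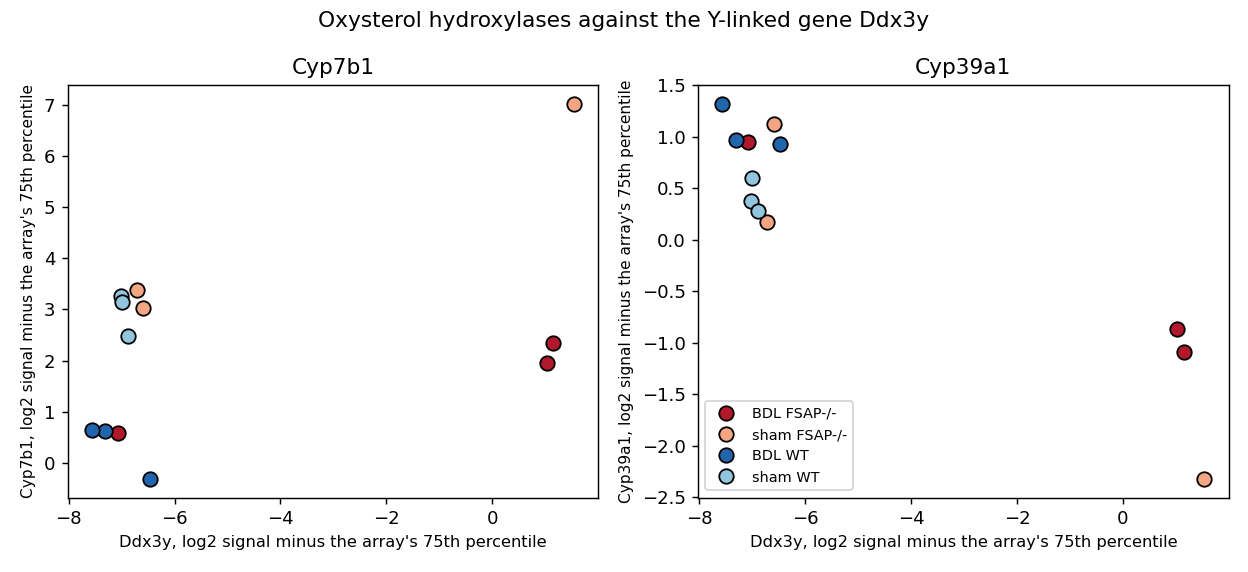
Cyp7b1 (left) and Cyp39a1 (right) are plotted against the Y-linked gene Ddx3y, all as log2 signal minus the array's 75th percentile, 1 point per array and 1 colour per group. The 3 arrays on the right, with Ddx3y between 1.03 and 1.54, are high in Cyp7b1 within their groups and are the 3 lowest in Cyp39a1.

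The enzymes of the steps that both pathways share fell in both genotypes in the model without slide, and several of these calls were lost with slide as a fixed block. With that block the FSAP-/- change rests on slide 3, with 3 BDL arrays and 1 sham array. The WT change rests on slide 1, with 1 BDL array and 3 sham arrays. A lost call may thus reflect fewer arrays, which was not tested. Hsd3b7, the dehydrogenase that acts on the hydroxylated sterol ring, read 5.76, 5.54 and 4.59 on the FSAP-/- BDL arrays, against 6.72, 6.97 and 6.89 on the FSAP-/- sham arrays. In WT livers it read 5.68, 5.44 and 4.73 after BDL, against 6.52, 6.41 and 6.44 after sham. Sham arrays of a genotype lay close together and above every BDL array. Hsd3b7 fell by 1.56 ± 0.30 in FSAP-/- livers (adjusted p = 0.00243) and by 1.17 ± 0.30 in WT livers (adjusted p = 0.0132). With slide as a fixed block Hsd3b7 was -1.59 in FSAP-/- livers (adjusted p = 0.0442) and -0.77 in WT livers (adjusted p = 0.291), so the WT call was lost.

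Akr1d1, the reductase that bends the sterol ring into the shape of a bile acid, read -0.49, -0.56 and -0.77 on the FSAP-/- BDL arrays, against -0.15, 0.44 and 0.70 on the FSAP-/- sham arrays. The WT readings of Akr1d1 were 0.23, 0.49 and 0.11 after BDL, against 0.76, 0.81 and 1.23 after sham. Akr1d1 fell by 0.94 ± 0.22 in FSAP-/- livers (adjusted p = 0.00723) and by 0.66 ± 0.22 in WT livers (adjusted p = 0.0436). Amacr, the racemase that readies the side chain for shortening, was read by 10 spots on each array, whose log2 values had an SD of 0.0287 to 0.103. It read 4.52, 4.60 and 3.73 on the FSAP-/- BDL arrays, against 5.25, 5.43 and 5.22 on the FSAP-/- sham arrays. The WT readings of Amacr were 4.47, 4.88 and 4.53 after BDL, against 5.28, 5.26 and 5.35 after sham. The groups of neither gene overlapped within a genotype. Amacr fell by 1.02 ± 0.22 in FSAP-/- livers (adjusted p = 0.00417) and by 0.67 ± 0.22 in WT livers (adjusted p = 0.0374). The WT calls of Akr1d1 and Amacr were near the threshold, with adjusted p of 0.0913 and 0.0989 without WT BDL replicate 1. Both were also lost without WT BDL replicate 3 and without each WT sham array. Over all arrays left out in turn, the Akr1d1 call in WT livers was lost in 9 of 12 (adjusted p 0.0521 to 0.154) and the Amacr call in 6 of 12 (0.0505 to 0.102). With slide as a fixed block Akr1d1 was -1.31 in FSAP-/- livers (adjusted p = 0.0133) and -0.70 in WT livers (adjusted p = 0.109). Amacr was -0.94 in FSAP-/- livers (adjusted p = 0.089) and -0.83 in WT livers (adjusted p = 0.145) in that fit, past the threshold in neither.

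Of the conjugating enzymes, Slc27a5 fell in both genotypes and Baat passed the test in FSAP-/- livers alone. Slc27a5, which activates bile acids with coenzyme A, read 6.21, 6.38 and 6.13 on the FSAP-/- BDL arrays, against 7.77, 7.65 and 7.59 on the FSAP-/- sham arrays. WT livers had Slc27a5 at 6.67, 6.77 and 6.37 after BDL, against 7.75, 8.03 and 8.05 after sham. These were tight groups with no overlap. Slc27a5 fell by 1.43 ± 0.15 in FSAP-/- livers (adjusted p = 7.25e-05) and by 1.34 ± 0.15 in WT livers (adjusted p = 1.22e-04). Its second probe gave -1.71 ± 0.14 in FSAP-/- livers and -1.44 ± 0.14 in WT livers. Baat, which adds taurine or glycine, read 1.47, 1.17 and 0.99 on the FSAP-/- BDL arrays, against 2.02, 2.03 and 1.82 on the FSAP-/- sham arrays. In WT livers Baat read 1.74, 1.57 and 1.66 after BDL, against 1.99, 1.86 and 1.91 after sham. Baat fell by 0.75 ± 0.15 in FSAP-/- livers (adjusted p = 0.0026) and was -0.26 ± 0.15 in WT livers (adjusted p = 0.203), with an interaction of -0.49 ± 0.21 (adjusted p = 0.342). With slide as a fixed block the FSAP-/- change of Baat was -0.61 (adjusted p = 0.0896), while Slc27a5 kept its call in both genotypes.

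Set side by side, the classic pair had a lower mean change than the 3 alternative enzymes. Of the pair, only Cyp8b1 lay below the alternative mean. Cyp39a1, at 0.01 in FSAP-/- livers and 0.66 in WT livers, raised the alternative mean, so the size of the contrast also depends on it. The mean change of Cyp7a1 and Cyp8b1 was -2.19 in FSAP-/- livers and -2.75 in WT livers. The mean change of Cyp27a1, Cyp7b1 and Cyp39a1 was -1.36 in FSAP-/- livers and -0.83 in WT livers. The classic minus alternative difference was thus -0.83 in FSAP-/- livers and -1.92 in WT livers, where the SD between arrays of 1 group was 0.58. The FSAP-/- difference was -0.48 without sham replicate 2. Per array, relative to the sham mean of the genotype, it was -0.33, -1.34 and -0.83 on the FSAP-/- BDL arrays, against -0.75, 0.71 and 0.03 on the FSAP-/- sham arrays. In WT livers it was -1.40, -2.30 and -2.06 after BDL, against -0.11, -0.51 and 0.62 after sham. The groups overlapped in FSAP-/- livers and did not overlap in WT livers. Cyp7a1 by itself, at -0.30 in FSAP-/- livers and -0.75 in WT livers, lay above the alternative mean in both, and Cyp39a1 lay above Cyp7a1. This contrast is a description and was not tested.

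Some markers of hepatocytes, the cells that hold this pathway, also fell after BDL. Of 12 hepatocyte markers, 7 fell and 0 rose in FSAP-/- livers with a median change of -0.63, where 22.8% of all tested genes fell. In WT livers 3 of the 12 fell and 0 rose, where 17.7% of all tested genes fell. The WT median of these markers was -0.09, with 7 of 12 below 0. Their summed level was 3179 to 4175 times the 75th percentile on the FSAP-/- BDL arrays, against 4854 to 5384 on the FSAP-/- sham arrays. In WT livers it was 3437 to 6092 after BDL, against 4677 to 5355 after sham, so these ranges overlapped. Markers of other cells were higher: 6 of 7 tested cholangiocyte markers rose in each genotype, 8 of 8 macrophage markers in FSAP-/- livers and 7 of 8 in WT livers, and 7 of 8 stellate cell and myofibroblast markers in FSAP-/- livers and 4 of 8 in WT livers. Neutrophil markers rose in 2 of 5 in each genotype. For the interaction 0 of the 12 hepatocyte markers passed limma's test, and 0 of the 8 stellate cell and myofibroblast markers. Over all tested genes 0.0102% passed. Of all 19531 tested genes, 3166 rose in FSAP-/- livers and 2958 in WT livers. With each array set to the mean of its 12 hepatocyte markers in place of the 75th percentile, a scale added after seeing the data, 3 of the 10 enzymes fell in each genotype, Cyp8b1, Hsd3b7 and Slc27a5, where 3.92% of all tested genes fell in FSAP-/- livers and 8.92% in WT livers. On that scale Cyp8b1 fell by 3.42 ± 0.43 in FSAP-/- livers (adjusted p = 1.35e-04) and by 4.60 ± 0.43 in WT livers (adjusted p = 3.61e-05). Hsd3b7 fell by 0.90 ± 0.24 in FSAP-/- livers and by 1.03 ± 0.24 in WT livers, and Slc27a5 fell by 0.77 ± 0.20 and 1.20 ± 0.20 in FSAP-/- and WT livers. Cyp7b1 on that scale was -2.18 ± 0.88 in FSAP-/- livers (adjusted p = 0.0679) and -2.49 ± 0.88 in WT livers (adjusted p = 0.0621). Cyp27a1 was -0.58 ± 0.21 in FSAP-/- livers (adjusted p = 0.0514), and Baat was -0.09 ± 0.21 (adjusted p = 0.768).

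**Figure D4:**
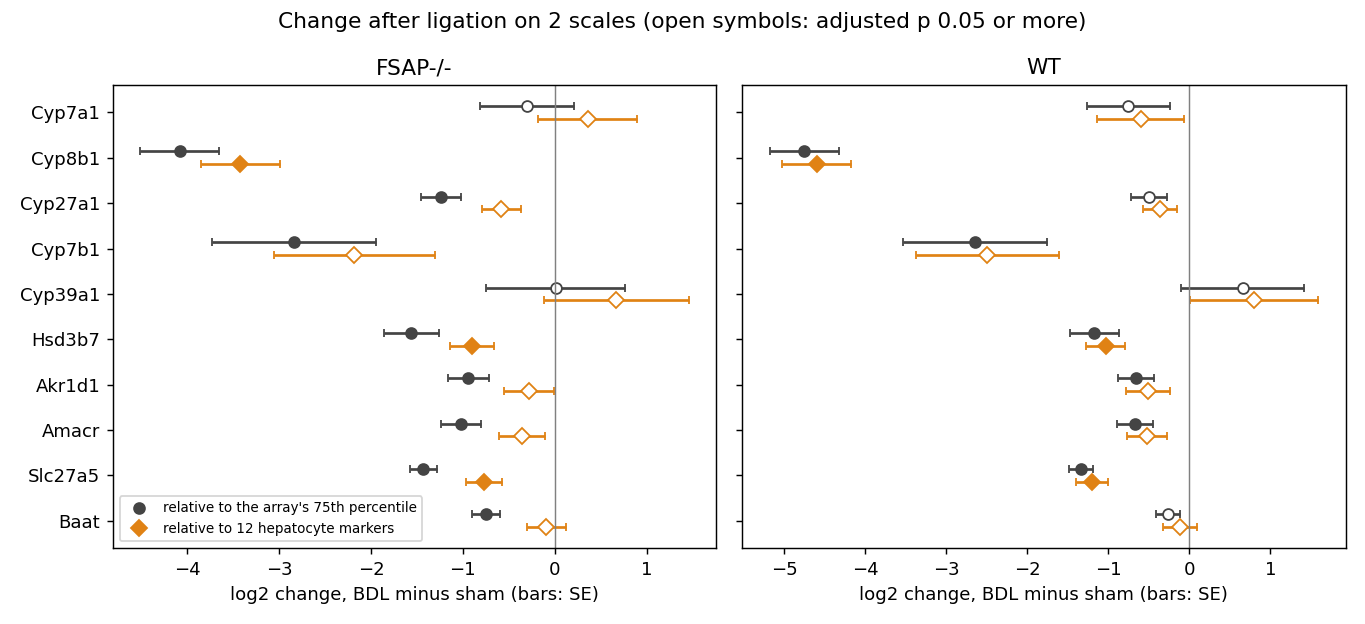
The log2 change after BDL of each enzyme (BDL minus sham, bars are standard errors) is shown relative to the array's 75th percentile (circles) and relative to 12 hepatocyte markers (diamonds), with FSAP-/- livers on the left and WT livers on the right; open symbols have an adjusted p of 0.05 or more. Cyp8b1, Hsd3b7 and Slc27a5 keep filled symbols on both scales in both genotypes, and Baat in FSAP-/- livers moves to -0.09.

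Loss of FSAP changed 0 of the 10 enzymes at the threshold. In sham livers, after BDL and for the interaction 0 of 10 passed limma's test, where 0.0154%, 0.215% and 0.0102% of all tested genes passed. At an unadjusted p under 0.05 stood 1 of the 10 in sham livers, where 7.88% of all tested genes did. After BDL it was 5 of the 10, against 12.9% of all tested genes, and for the interaction 2 of the 10, against 13.7%. Akr1d1 had the lowest adjusted p of the 10 after BDL. It was -0.88 ± 0.22 in FSAP-/- relative to WT BDL livers (adjusted p = 0.132) and -0.60 ± 0.22 in sham livers (adjusted p = 0.501), with all 3 FSAP-/- arrays below all 3 WT arrays after each surgery. The groups were also apart for Baat after BDL, at -0.45 ± 0.15 (adjusted p = 0.235), and for Hsd3b7 in sham livers, at 0.40 ± 0.30 (adjusted p = 0.831). So 2 of 10 enzymes had groups that did not overlap after BDL, where 15.6% of all genes did, and 2 of 10 in sham livers, where 17.1% of all genes did. Cyp8b1 was 1.28 ± 0.43 in FSAP-/- relative to WT BDL livers (95% interval 0.33 to 2.23, adjusted p = 0.242). Cyp7b1 was 1.51 ± 0.89 in sham livers (adjusted p = 0.754) and 1.31 ± 0.89 after BDL (adjusted p = 0.576). With Y-linked signal as a covariate those Cyp7b1 values were 0.62 ± 0.48 and -0.49 ± 0.55, and the value of Cyp39a1 after BDL, -1.41 ± 0.76 without the covariate, was 0.22 ± 0.34. Genotype and slide cannot be told apart in these comparisons, beyond what the fit with slide as a block allows.

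Genes whose pattern over the 12 arrays was most like that of 3 enzymes were named by the root mean square difference of centred log2 values over 15873 genes. For Cyp8b1, whose own SD over the arrays was 2.31, they were Inmt at 0.64, an enzyme that methylates amines, Slc26a4 at 0.68, an anion exchanger, and Cyp2c54 at 0.68, a cytochrome P450. For Cyp7b1, with an SD of 1.85, they were Lipn at 0.73, a lipase, Serpina9 at 0.74 and Nudt7 at 0.78, a hydrolase of coenzyme A in peroxisomes. For Cyp7a1, with an SD of 0.65, they were Alas1 at 0.37, the first enzyme of haem synthesis, Taf7 at 0.39 and Zfp759 at 0.39. The 3 genes nearest to Cyp8b1 were picked on these same arrays, so their direction follows from the choice; their changes after BDL were, as a description, -4.06, -4.22 and -2.96 in FSAP-/- livers and -6.00, -4.62 and -4.29 in WT livers. Among the 10 enzymes the closest pair was Amacr and Baat, at 0.26.

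Other enzymes of bile acid synthesis mostly fell as well. Of 9 further steps, 6 fell and 1 rose in FSAP-/- livers, and 5 fell and 2 rose in WT livers, with medians of -0.89 and -0.73. The background was 22.8% of all tested genes that fell in FSAP-/- livers and 17.7% in WT livers. Akr1c14, a hydroxysteroid dehydrogenase, fell by 2.02 ± 0.36 in FSAP-/- livers and by 2.85 ± 0.36 in WT livers. Slc27a2, which activates bile acid precursors and very long fatty acids, fell by 1.64 ± 0.18 and by 1.85 ± 0.18 in FSAP-/- and WT livers. Abcd3, a transporter that brings such precursors into peroxisomes, fell by 1.57 ± 0.18 in each genotype. Ch25h, which makes an oxysterol in macrophages and other cells, was well above background on 3 of 3 FSAP-/- BDL arrays and 2 of 3 WT BDL arrays, and on 0 of the 6 sham arrays. Its mean over the BDL arrays was set against, per sham array, the lowest signal well above background. By that measure Ch25h was at least 3.78-fold higher after BDL in FSAP-/- livers and 1.49-fold higher in WT livers. The WT value is no strict lower bound, since only 2 of 3 BDL arrays were well above background. Ch25h rose in limma's test of the readings themselves (adjusted p = 2.42e-04 in FSAP-/- and 0.00633 in WT livers). The other gene that rose in WT livers, Acox2, a peroxisomal oxidase of the side chain, was named after its value was seen: it was 0.35 ± 0.22 in FSAP-/- livers (adjusted p = 0.244) and rose by 0.89 ± 0.22 in WT livers (adjusted p = 0.0103).

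Of the 3 electron donors of these P450 enzymes, 1 fell in FSAP-/- livers and 2 in WT livers, against 22.8% and 17.7% of all tested genes. Fdx1, which feeds mitochondrial P450s such as Cyp27a1, fell by 0.97 ± 0.16 in FSAP-/- livers and by 1.01 ± 0.16 in WT livers. Fdxr was -0.51 ± 0.20 in FSAP-/- livers (adjusted p = 0.0639) and fell by 0.58 ± 0.20 in WT livers (adjusted p = 0.0453). The remaining donor, Por, was named after its values were seen. It was 0.23 ± 0.24 in FSAP-/- livers (adjusted p = 0.477) and 0.54 ± 0.24 in WT livers (adjusted p = 0.105). Of 4 enzymes that modify bile acids in mice, Sult2a8 and Cyp2a12 fell in both genotypes, against the same shares of all tested genes. Sult2a8, a sulfotransferase of bile acids, fell by 6.20 ± 0.34 in FSAP-/- livers (adjusted p = 2.77e-06) and fell by 5.98 ± 0.34 in WT livers (adjusted p = 2.27e-06), further than any of the 10 enzymes. Its levels were -0.78 to 0.49 on the FSAP-/- BDL arrays, against 5.46 to 6.18 on the FSAP-/- sham arrays. In WT livers they were -1.03 to -0.29 after BDL, against 5.23 to 5.43 after sham. Cyp2a12, which rehydroxylates secondary bile acids in mice, fell by 0.98 ± 0.17 in FSAP-/- livers and by 0.91 ± 0.17 in WT livers. Cyp2c70, which makes the muricholic acids of mice, was -0.34 ± 0.18 in FSAP-/- livers (adjusted p = 0.159) and -0.08 ± 0.18 in WT livers (adjusted p = 0.774).

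Of 9 tested regulators of the pathway, 7 fell in FSAP-/- livers and 1 in WT livers, and 0 rose in either. Over all tested genes 22.8% fell in FSAP-/- livers and 17.7% in WT livers, so the WT count does not stand out. For the interaction 0 of the 9 passed limma's test, where 0.0102% of all tested genes passed. The changes of these regulators are thus not shown to differ between the genotypes. Nr1h4 (FXR), the bile acid receptor, fell by 0.67 ± 0.13 in FSAP-/- livers (adjusted p = 0.00279) and by 0.59 ± 0.13 in WT livers (adjusted p = 0.00668). Nr0b2 (SHP), the repressor that FXR induces, was -0.83 ± 0.44 in FSAP-/- livers (adjusted p = 0.159) and 0.65 ± 0.44 in WT livers (adjusted p = 0.284). In FSAP-/- livers Klb and Fgfr4, the coreceptor and receptor for the intestinal hormone, fell by 1.03 ± 0.30 and 0.81 ± 0.22. In WT livers they were -0.46 ± 0.30 and -0.38 ± 0.22, past the threshold for neither. Nr1h3 (LXR alpha), a receptor of oxysterols, fell by 0.90 ± 0.17 in FSAP-/- livers and was -0.44 ± 0.17 in WT livers (adjusted p = 0.0691). Mafg, a repressor of bile acid genes in mice, fell by 0.72 ± 0.18 in FSAP-/- livers (adjusted p = 0.0102) and was -0.05 ± 0.18 in WT livers (adjusted p = 0.85). Hnf4a and Nr5a2 are given here for the sequences searched in the promoters. Hnf4a, also counted among the 12 hepatocyte markers, fell by 0.59 ± 0.18 in FSAP-/- livers and was 0.10 ± 0.18 in WT livers (adjusted p = 0.717). Nr5a2 was -0.66 ± 0.27 in FSAP-/- livers (adjusted p = 0.0706) and -0.41 ± 0.27 in WT livers (adjusted p = 0.261). A link of either to Cyp8b1 was not tested. Fgf15, the intestinal hormone itself, was well above background on 0 of the 12 arrays.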

How the data were processed

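Liver RNA of 12 mice was hybridised to 12 one-colour Agilent arrays. The deposited scanner files hold each spot's intensity, background-subtracted and detrended within the array by Agilent Feature Extraction 10.5.1.1 (protocol GE1_105_Jan09), per the file headers, with probe positions on mm9. The deposited series matrix holds log2 values by the authors (scaling: not given in the sources used here) and was used as an alternative.

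From the files, log2 of the processed signal was centred on each array's 75th percentile. Spots with outlier marks were left out (79 of 234372 values), spots of a probe were averaged and the brightest probe represented a gene. Symbols followed RefSeq accessions where they matched. Genes well above background on 3 or more arrays were tested, 19531 in all. A model of 4 group means was fitted to the 12 arrays with limma 3.58.1 in R 4.3.3, with 8 residual and 2.69 prior degrees of freedom. Tests were two-sided, and p-values were adjusted over the 19531 genes (Benjamini-Hochberg). "Rose" and "fell" mean an adjusted p under 0.05, and ± is the model's standard error. P-values rest on the spread between mice within groups of 3, estimated for each gene over all 4 groups and moderated over genes. A comparison within a genotype thus also carries the spread of the other genotype's arrays. The procedure was tested on simulated data.

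The 10 members and all lists were chosen with earlier results of these data known. All members are named on every array. Of each further bile acid list, up to 4 genes with the largest change among those called are named, and Nr1h4, Nr0b2, Cyp2c70 and Cyp2a12 always. Hnf4a and Nr5a2 are named for the promoter search, and Acox2 and Por were named after their values were seen. The 3 genes nearest to Cyp7a1, Cyp8b1 and Cyp7b1 are named too. The 5 comparisons share groups. Alternatives covered scaling, background correction, the filter on dim probes, the probe rule, slide, Y-linked signal, the replicate number and each array left out.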

Additional observations from a re-analysis of the deposited data

How the results depend on the processing

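Of the 10 enzymes, 8 were called after BDL in FSAP-/- livers and 6 in WT livers. Leaving out single arrays aside, this number moved by over 1.5 times under 3 settings. It was 5 in FSAP-/- and 3 in WT livers with slide as a fixed block, 3 in each genotype relative to 12 hepatocyte markers, and 3 in WT livers with no filter on dim probes, where 31870 genes were tested. Smaller moves came with quantile normalization (7 and 5), the series matrix values (4 in WT livers), a fit within 1 genotype (7 and 7, with Cyp39a1 higher in WT livers) and without the Y-linked arrays (7 in WT livers). The fixed slide block removed Cyp7b1, Amacr and Baat in FSAP-/- livers and Hsd3b7, Akr1d1 and Amacr in WT livers. In that fit the change rests on 1 sham array in FSAP-/- livers and on 1 BDL array in WT livers. With 1 array left out the number called was 7 to 8 in FSAP-/- and 3 to 6 in WT livers. The fall to 3 in WT livers is also a move by over 1.5 times. The 3 in WT livers came without BDL replicate 1, BDL replicate 3 or any 1 sham array, which removed Akr1d1, Amacr and Cyp7b1. Genotype and interaction counts were 0 under every setting run. The classic minus alternative difference was -1.21 to -0.48 in FSAP-/- and -2.18 to -1.61 in WT livers with 1 array left out. Quantile normalization left Amacr at -0.58 (adjusted p = 0.052) in FSAP-/- and -0.34 (adjusted p = 0.235) in WT livers. Fitted within 1 genotype, Cyp7b1 had an adjusted p of 0.0885 in FSAP-/- livers, and without the Y-linked arrays Cyp27a1 had 0.0387 in WT livers. Of 690 single-enzyme values under other settings, 622 kept sign and side of the threshold, 43 changed sign with no call in either setting, 23 lost and 2 gained the call, and 0 called values reversed. With 1 array left out 554 of 600 kept both, 22 changed sign uncalled, 23 lost and 1 gained the call. With the replicate block the count was 8 in FSAP-/- and 5 in WT livers, where Akr1d1 had an adjusted p of 0.0559. Deviations of arrays with the same number correlated at -0.202 to 0.191, above 0.1 in 2 of 18 pairs. For arrays with different numbers it was -0.208 to 0.216, above 0.1 in 5 of 36 pairs. Matching of mice by number is neither shown nor excluded by this, and no paired analysis is given beside the results. Over all genes, 9077 of BDL calls in FSAP-/- livers included 2608 rises under median scaling, against 3166 of 7624; in WT livers it was 2238 of 6762, against 2958 of 6415. Median scaling moved the median change of all genes to -0.36 in FSAP-/- and -0.19 in WT livers, against -0.16 and -0.03. Hepatocyte-marker scaling moved it to 0.50 and 0.11, with 6735 of 7501 and 2593 of 4336 calls as rises. The fixed slide block left 4190 and 3304 calls. Genotype calls after BDL ran from 2 to 135 over the settings and interaction calls from 0 to 365. The causes were not tested. With 3 mice a group, the spread between mice limits small changes.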
